A study of Mus musculus with 15 samples.

Results

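Expression of 43 genes for mitosis, the kinetochore and cytokinesis was followed in the mouse optic nerve after crush. The genes were given by name, with kinesins other than Cenpe left out, and all 43 were among the 14237 genes in the deposited table. The RNA-seq libraries came from total RNA of the optic nerve, taken from adult mice of the C57BL/6J strain in 3 groups of 5 biological replicates. Every animal had an adeno-associated virus of serotype 2 (AAV2) injected into the vitreous, the gel inside the eye. In the sham group the virus was AAV-null, which has no transgene, and the nerve was exposed without being crushed. In the crush AAV-null group the same empty virus was followed 2 weeks later by optic nerve crush. In the crush AAV-CNTF group the virus encoded a secretable ciliary neurotrophic factor (CNTF) and the nerve was crushed at the same interval. Both crush groups were collected 7 days after crush, and the times of the sham operation are not stated. The transgene was delivered to the eye while the RNA came from the nerve, and the promoter driving it, the sex of the mice and any pooling of nerves are not stated.

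A cell that divides first copies its DNA and then enters mitosis when cyclin A and cyclin B activate the kinase Cdk1. Condensin compacts the chromosomes, the kinetochore binds each centromere to spindle microtubules, and the spindle checkpoint holds the anaphase-promoting complex (APC/C) in check until every kinetochore is attached. The APC/C then marks cyclin B and securin for degradation, the sister chromatids separate, and a contractile ring divides the cytoplasm. In the adult optic nerve most cells are glia that rarely divide, while NG2 glia, microglia, infiltrating macrophages, fibroblasts and endothelial cells are known to be able to divide after injury. In bulk RNA, fewer cells of a type and less RNA per cell cannot be told apart.

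Summed counts over the listed genes ran from 19856688 to 29558293 per library. Values below are CPM, read counts divided by the library size and scaled by the trimmed mean of M values (TMM), unless another unit is named. On the second principal component of all genes, replicate 6 of the crush AAV-null group lay at 99.7 and the other 14 libraries between -24 and 8.98. Cntf RNA, in which endogenous and transgene transcripts cannot be told apart, stood at 11.7 to 24.5 CPM in sham, 0.767 to 9.41 in crush AAV-null and 4.37 to 8.42 in crush AAV-CNTF libraries. The summed markers of oligodendrocytes, astrocytes, NG2 glia and microglia were above 0 in every library, and 5 retina markers were not among the listed genes. Every listed gene had at least 1 FPKM (fragments scaled to gene length and library size) in at least 4 libraries of some group. Of the 43 genes, 14 met that level in sham nerve and 29 met it only after crush. Those 29 could enter the table only through a group in which they were high, so counts over the 43 describe these genes and carry no weight as evidence of a general rise.

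Many genes of mitosis are known to be switched on late in the cell cycle through a cell cycle genes homology region (CHR), bound by the MuvB complex with B-Myb and Foxm1, and through CCAAT boxes bound by NF-Y. Upstream sequences of 5 member genes are shown. Around their starts Mki67, Cenpf, Cdk1 and Cdc20 hold matches to both elements, and Anln to CHR only. Any part of these elements in the changes after crush was not tested. Sequences are from RefSeq on GRCm38.p6, each 200 bases long, 5′ to 3′ on the gene's strand, and they end at the base before the RefSeq start or before the first annotated exon. Capitals mark a match to the CHR letters TTTGAA and TTCGAA or to CCAAT, on either strand. Mki67, Cenpf and Anln are the 3 members with the highest mean CPM that have a promoter entry, and Cdk1 and Cdc20 were chosen after their matches were seen.
Mki67, chr7:135716380-135716579, minus strand: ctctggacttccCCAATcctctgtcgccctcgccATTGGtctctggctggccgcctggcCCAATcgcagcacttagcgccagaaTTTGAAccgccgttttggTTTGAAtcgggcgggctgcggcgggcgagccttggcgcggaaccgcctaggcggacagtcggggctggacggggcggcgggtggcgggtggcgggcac
Cenpf, chr1:189688087-189688286, minus strand: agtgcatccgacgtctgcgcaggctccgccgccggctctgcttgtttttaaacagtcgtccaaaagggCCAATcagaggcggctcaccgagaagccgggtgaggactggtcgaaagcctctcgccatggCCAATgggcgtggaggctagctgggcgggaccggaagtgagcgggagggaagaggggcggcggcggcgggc
Anln, chr9:22389207-22389406, minus strand: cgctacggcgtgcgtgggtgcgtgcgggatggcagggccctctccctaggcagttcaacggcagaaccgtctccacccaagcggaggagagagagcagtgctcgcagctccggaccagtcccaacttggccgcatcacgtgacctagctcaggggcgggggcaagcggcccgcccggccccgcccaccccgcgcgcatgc
Cdk1, chr10:69352939-69353138, minus strand: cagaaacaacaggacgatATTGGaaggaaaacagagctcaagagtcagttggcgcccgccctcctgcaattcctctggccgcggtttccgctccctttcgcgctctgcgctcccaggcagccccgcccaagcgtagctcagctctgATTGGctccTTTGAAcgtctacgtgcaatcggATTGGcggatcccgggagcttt
Cdc20, chr4:118437353-118437552, minus strand: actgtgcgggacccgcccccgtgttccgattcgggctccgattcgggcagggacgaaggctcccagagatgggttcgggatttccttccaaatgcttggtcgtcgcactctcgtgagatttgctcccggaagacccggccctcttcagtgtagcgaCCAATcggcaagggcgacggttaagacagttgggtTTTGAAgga
The Mki67 sequence holds CCAAT matches that begin 188, 166 and 141 bases before the start, followed by CHR matches that begin at 116 and 98. In Cenpf the CCAAT matches begin 132 and 71 bases before the start, and its CHR match lies after the start, at base 3, outside the printed letters. The printed Anln sequence holds neither element, and its CHR matches begin at bases 22 and 29 after the start. Cdk1 holds CCAAT matches that begin 208, 80 and 48 bases before the start and CHR matches that begin 71 and 15 bases before it, the last outside the printed letters. Cdc20 holds a CHR match that begins 18 bases before the start and CCAAT matches that begin 53 and 8 bases before it, the last outside the printed letters.

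Of the 43 genes, 35 had an entry in the RefSeq promoter table, which spans 250 bases before to 50 bases after each start. The 35 genes have 37 entries. A CHR match was found in 28 of the 37 entries (75.7%), against 19.2% of all 32851 promoters of the same length. A CCAAT match was found in 27 of the 37 (73.0%), against 37.4% of all promoters. Both were found in 25 of the 37 (67.6%), against 7.52% of all promoters. Of 36 CHR matches in member promoters, 27 (75%) began within 50 bases of the start on either side, against 25.2% of the 7260 matches in all promoters. The 36 are 33 distinct sites, since Prc1 and Ect2 have a pair of overlapping entries each, and 1 CHR match overlapped a CCAAT match. Of the 35 genes, Ccnb1, Melk, Mad2l1, Birc5, Cenpe, Nuf2, Pttg1, Nusap1 and Ncaph had no CHR match in this window. A match is a description of letters, not of binding.

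**Figure D1:**
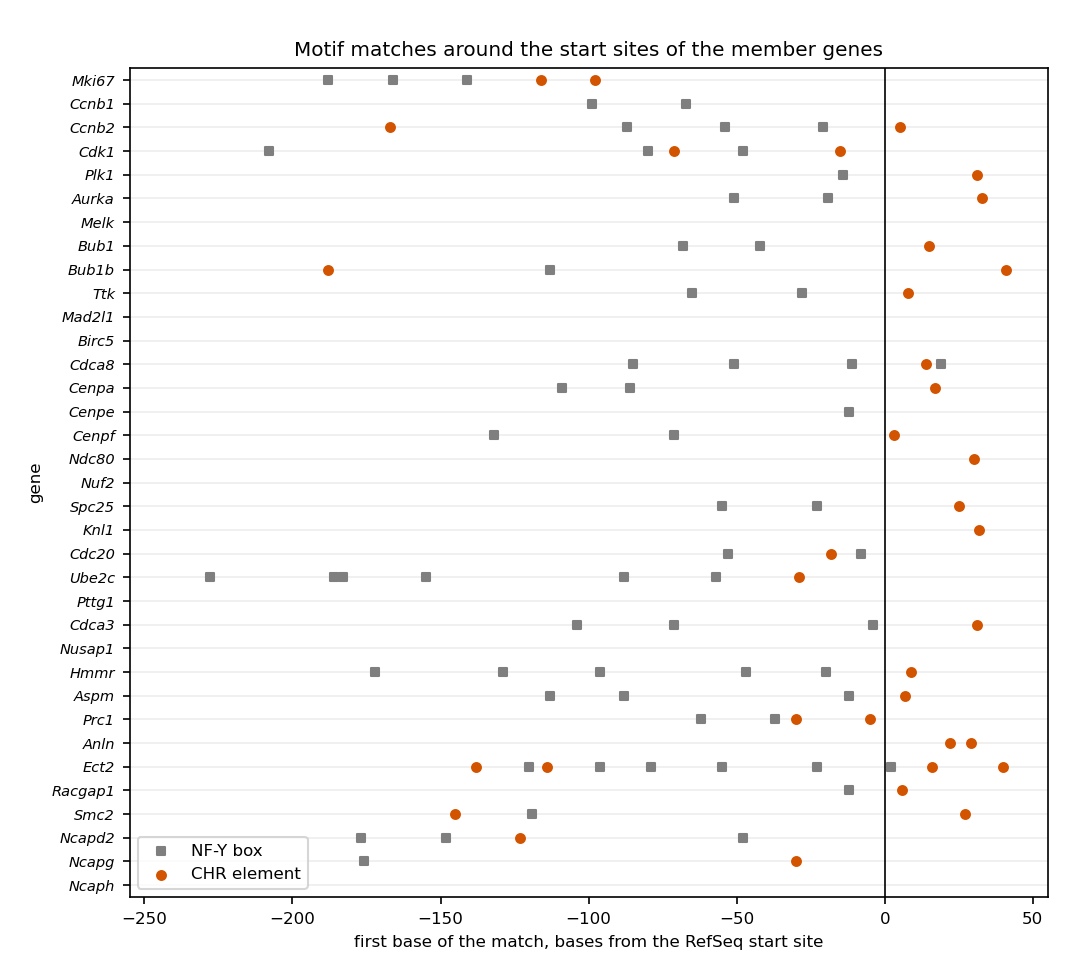
Distance of each CHR match (orange circles) and each CCAAT match (grey squares, NF-Y box) from the RefSeq start, in bases, for the 35 member genes with a promoter entry. Of the 36 CHR matches, which count a site again where a gene has overlapping entries, 27 begin within 50 bases of the start.

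The first comparison asked how crush changed the nerve under the empty virus. Of the 43 genes, 39 were higher in crush AAV-null than in sham nerves, Anln and Pttg1 were lower, and Spc24 and Esco2 passed in neither direction. The threshold was an adjusted p of 0.05 in edgeR's quasi-likelihood test over 14194 genes. Over all genes tested, 14.7% were called higher and 12.9% lower. The median log2 fold change was 3.19 over the 43 genes and 0.005 over all genes tested. All 5 crush AAV-null libraries lay above all 5 sham libraries for 37 of the 43 genes, against 10.5% of all genes tested. On FPKM values, which carry no TMM scaling, the groups were separate in this way for 31 of the 43, and limma on log2(FPKM + 0.1) called 39 of them higher and 1 lower. Over all genes it called 16.5% higher and 5.82% lower, and the median difference of all genes lay at 0.18 on that scale. Of the 14 genes that met the level of 1 FPKM in sham, 12 were higher and 2 lower, with a median log2 fold change of 1.99. The authors' deposited table has 39 of the 43 genes at an adjusted p under 0.05 in this comparison, 38 of them higher.

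**Figure D2:**
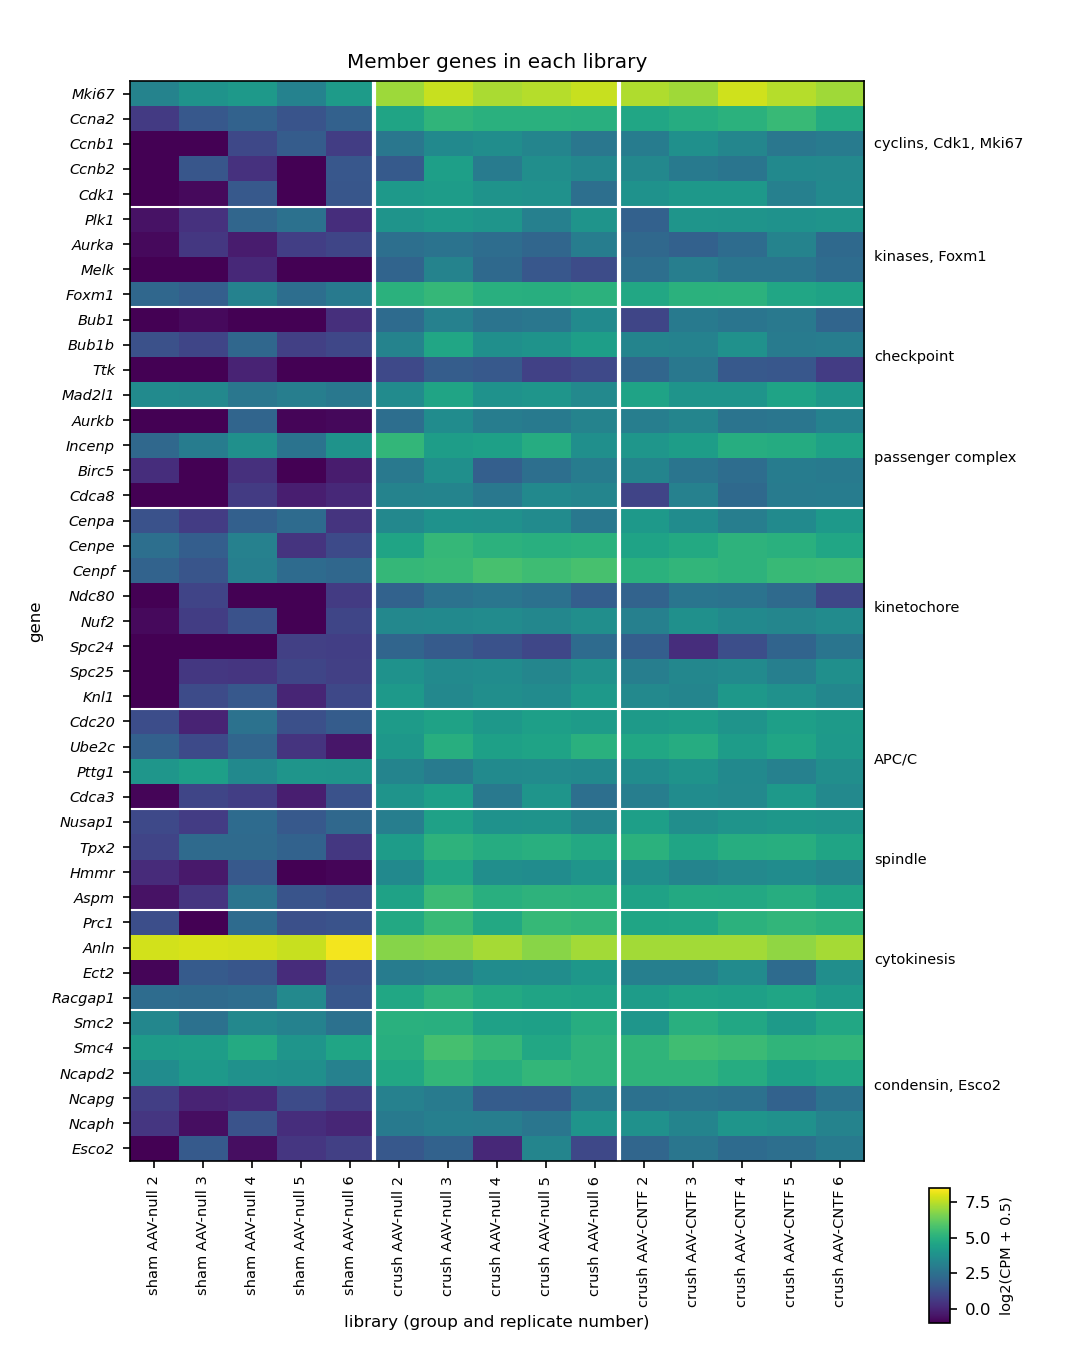
Level of each of the 43 genes (rows, grouped by role) in each of the 15 libraries (columns), as log2(CPM + 0.5). Most rows are darker in the 5 sham libraries than in the 10 crush libraries, and Anln goes the other way. Pttg1 is lower on average after crush, but its sham and crush libraries overlap.

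The cyclins, Cdk1 and the proliferation marker Mki67 all rose. Mki67, which coats mitotic chromosomes and marks cells in cycle, read 8.97, 14.3, 16.6, 8.85 and 17.9 CPM in the sham libraries and 138, 206, 157, 174 and 210 in the crush AAV-null libraries, with 164, 141, 223, 172 and 141 in the crush AAV-CNTF libraries. The lowest crush library lay far above the highest sham library, and the log2 fold change of crush AAV-null over sham was 3.73 ± 0.19 (SE, adjusted p = 1.28e-10). Ccnb1, cyclin B1, the activator of Cdk1 at mitotic entry, had the smallest change of the 5 genes. It read 0, 0, 1.58, 2.896 and 1.13 CPM in sham, 6.36, 10.9, 12.01, 9.61 and 6.26 in crush AAV-null and 7.45, 13.1, 9.71, 6.38 and 7.19 in crush AAV-CNTF, a log2 fold change of 3.01 ± 0.70 (SE, adjusted p = 0.00392). Its sham libraries, some of which had no count, stayed below every crush library. Ccna2, cyclin A2, went from 2.53 ± 0.982 to 30.9 ± 4.98 CPM (SD, n = 5 each), Cdk1 from 1.03 ± 1.37 to 13.5 ± 5.18, and Ccnb2 from 1.13 ± 1.23 to 10.5 ± 6.51. The Cdk1 level in replicate 6 of crush AAV-null, 5.01 CPM, was the lowest of that group. Mki67 lies on chromosome 7 from 135689784 to 135716361 in GRCm38 (GENCODE M21), on the minus strand. Ccnb1 and Ccnb2 each have a pseudogene with their name, so reads could be split between copies.

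The 4 genes for mitotic kinases and the transcription factor Foxm1 rose. Foxm1, which drives many of the genes described here, read 3.97, 3.14, 8.84, 4.93 and 7.08 CPM in sham, 32.8, 39.2, 31.7, 30.2 and 34.3 in crush AAV-null and 25.4, 33.2, 34.2, 23.97 and 22 in crush AAV-CNTF. No crush library overlapped a sham library, and the log2 fold change of 2.58 ± 0.23 (SE, adjusted p = 7.86e-08) was the smallest of the 4. Melk, a kinase of dividing and progenitor cells, had the largest. Its counts were 0 in 4 of the 5 sham libraries and 0.559 CPM in sham replicate 4. After crush it read 3.67, 9.07, 4.19, 2.48 and 1.83 CPM in AAV-null and 5.01, 7.83, 6.02, 5.89 and 4.63 in AAV-CNTF libraries, with a log2 fold change of 5.18 ± 0.93 (SE, adjusted p = 0.000337) for AAV-null. That fold rests on 12 sham counts in all and depends on the prior count of the fit. Plk1, which drives centrosome maturation and much of mitotic progression, went from 2.17 ± 2.28 to 13.9 ± 3.25 CPM, and Aurka, the spindle pole kinase, from 0.814 ± 0.587 to 5.399 ± 1.39 (SD, n = 5 each).

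All 4 spindle checkpoint genes rose, with sizes far apart. Mad2l1, the checkpoint protein that binds and holds Cdc20, changed least. It read 11.2, 10.2, 6.33, 7.94 and 6.396 CPM in sham, 11.4, 22.98, 13.9, 15.03 and 10.6 in crush AAV-null and 22.4, 14.6, 14.8, 22.3 and 15.6 in crush AAV-CNTF. Sham replicate 2 reached into the range of the crush AAV-null libraries, the other 4 lay below it, and the log2 fold change was 0.81 ± 0.25 (SE, adjusted p = 0.0179). Without crush AAV-null replicate 3, the highest library, it was 0.60 with an adjusted p of 0.0813, and with sham replicates 4 and 6 left out together 0.59 with an adjusted p of 0.141. Bub1, a kinase that recruits checkpoint proteins to the kinetochore, had the largest change of all 43 genes. It read 0, 0.0923, 0, 0 and 0.729 CPM in sham, 4.498, 8.45, 5.86, 6.27 and 11.1 in crush AAV-null and 1.48, 6.97, 5.99, 6.69 and 3.79 in crush AAV-CNTF, a log2 fold change of 5.34 ± 0.83 (SE, adjusted p = 0.000105) on 20 sham counts. Its sham CPM values were at or close to 0 and did not overlap the crush values. On FPKM they did overlap. Sham replicate 6 read 2.07 FPKM, above crush AAV-null replicates 2 and 4, at 1.43 and 2.03. It also lay above crush AAV-CNTF replicates 2 and 6, at 0.48 and 1.16 FPKM. Bub1b, the BubR1 subunit of the checkpoint complex, went from 2.05 ± 1.11 to 15.8 ± 5.86 CPM, and Ttk, the kinase that starts checkpoint signalling, from 0.0931 ± 0.208 to 2.05 ± 0.746, with 4 of 5 sham libraries at 0.

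The chromosomal passenger complex, which corrects faulty attachments and later guides cytokinesis, consists of the kinase Aurkb, the scaffold Incenp, survivin (Birc5) and borealin (Cdca8). All 4 genes rose. Incenp read 4.12, 7.48, 13.03, 5.68 and 14.3 CPM in sham, 38.4, 19.2, 20.5, 29.1 and 12.8 in crush AAV-null and 15.5, 18.9, 29.6, 28.5 and 21.2 in crush AAV-CNTF. Sham replicates 4 and 6 overlapped the lowest crush AAV-null library, and the log2 fold change was 1.42 ± 0.32 (SE, adjusted p = 0.00231). Cdca8 read 0, 0, 1.07, 0.375 and 0.567 CPM in sham, 9.09, 9.38, 6.41, 10.97 and 9.41 in crush AAV-null and 1.44, 8.55, 4.21, 7.18 and 7.47 in crush AAV-CNTF, with a log2 fold change of 4.46 ± 0.70 (SE, adjusted p = 0.000137). The groups did not overlap in crush AAV-null against sham. Birc5 went from 0.351 ± 0.359 to 7.04 ± 3.64 CPM and Aurkb from 0.781 ± 1.67 to 8.002 ± 2.59 (SD, n = 5 each). Nearly all of the sham signal of Aurkb came from sham replicate 4, at 3.77 CPM, where the other 4 sham libraries ran from 0 to 0.0810. In the authors' deposited values Aurkb did not pass in this comparison (adjusted p = 0.0990).

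Of the 8 centromere and outer kinetochore genes, 7 rose. On CPM all 8 had every crush AAV-null library above every sham library. On FPKM, Cenpf and Cenpa overlapped, with Cenpa at 14.19 in sham replicate 5 against 5.7 to 15.3 in crush AAV-null. Cenpf, a large kinetochore protein of G2 and mitosis, read 3.53, 2.31, 8.05, 4.51 and 3.97 CPM in sham, 39.7, 41.4, 52.6, 46.6 and 52.9 in crush AAV-null and 33.4, 37.5, 34.5, 42.2 and 43.9 in crush AAV-CNTF. On CPM the groups with and without crush were far apart, and the log2 fold change was 3.38 ± 0.23 (SE, adjusted p = 2.64e-09). On FPKM, Cenpf read 6.39 in sham replicate 4. That lay within its ranges of 4.75 to 9.05 in crush AAV-null and 3.54 to 10.16 in crush AAV-CNTF. The Ndc80 complex, which grips the microtubule end, has the subunits Ndc80, Nuf2, Spc24 and Spc25. Spc25 had the largest change of the role. It read 0, 0.969, 0.884, 1.502 and 1.26 CPM in sham, 14.03, 11.2, 11.9, 9.66 and 13.3 in crush AAV-null and 7.81, 9.99, 11.2, 8.02 and 12.6 in crush AAV-CNTF, a log2 fold change of 3.70 ± 0.47 (SE, adjusted p = 1.16e-05). Nuf2 went from 0.961 ± 0.900 to 11 ± 0.963 CPM and Ndc80 from 0.497 ± 0.693 to 4.66 ± 1.32 (SD, n = 5 each). Spc24 read 0, 0, 0, 1.23 and 1.21 CPM in sham, 3.77, 2.8, 2.14, 1.54 and 4.499 in crush AAV-null and 3.09, 0.687, 1.94, 3.72 and 6.03 in crush AAV-CNTF. Its log2 fold change of 2.58 ± 1.01 (SE, adjusted p = 0.0771) missed the threshold, and it passed with DESeq2 (adjusted p = 0.0214), with a replicate block (0.0274), with limma-voom (0.0453), with limma on FPKM (0.00802) and without sham replicate 5 (0.0488). Cenpa, the histone H3 variant that marks the centromere, changed least of the 8. It read 2.16, 1.11, 3.304, 4.56 and 0.850 CPM in sham, 10.3, 13.8, 13.3, 11.6 and 6.53 in crush AAV-null and 16.6, 11.8, 7.803, 11.2 and 16.9 in crush AAV-CNTF, a log2 fold change of 2.22 ± 0.39 (SE, adjusted p = 0.000234). Cenpe, the kinetochore motor, went from 3.81 ± 3.02 to 32.3 ± 5.98 CPM and Knl1, the scaffold that binds Bub1, from 1.28 ± 1.03 to 13.7 ± 3.18.

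Among the genes that act with the APC/C, 3 rose and Pttg1 fell. Ube2c, the enzyme that supplies ubiquitin to the complex, read 3.28, 1.71, 3.82, 0.858 and 0.243 CPM in sham, 15.9, 30.3, 20.5, 22.4 and 32.4 in crush AAV-null and 24.8, 28.8, 18.7, 23.7 and 16.8 in crush AAV-CNTF. Every crush library lay above every sham library, and the log2 fold change was 3.62 ± 0.41 (SE, adjusted p = 3.06e-06). Cdc20, the activator held by the checkpoint, went from 2.54 ± 1.87 to 18.95 ± 2.14 CPM, and Cdca3, a substrate that promotes mitotic entry, from 1.05 ± 0.846 to 12.3 ± 6.29 (SD, n = 5 each). Pttg1, securin, which holds separase inactive until anaphase, read 15.3, 20.03, 10.8, 15.1 and 14.7 CPM in sham, 9.19, 7.16, 11.2, 11.4 and 10.96 in crush AAV-null and 11.8, 14.1, 10.98, 8.62 and 12.4 in crush AAV-CNTF. Sham replicate 4 lay within the range of the crush AAV-null libraries, and the other 4 sham libraries lay above it. The log2 fold change was -0.61 ± 0.22 (SE, adjusted p = 0.0437). That call was lost in 11 of the 15 fits that left out 1 library, with adjusted p-values of 0.0504 to 0.130, and on FPKM values (adjusted p = 0.177). In the authors' deposited values Pttg1 did not pass in this comparison either (adjusted p = 0.0822). The gene overlaps no other annotated gene on chromosome 11 from 43420250 to 43426251.

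All 4 spindle-associated genes rose, without overlap on CPM. Aspm, a spindle pole protein, read 0.196, 0.877, 5.72, 2.25 and 1.78 CPM in sham, 21.9, 44.5, 31.2, 34.6 and 34.1 in crush AAV-null and 21.99, 26.9, 26.1, 29.9 and 22.8 in crush AAV-CNTF, a log2 fold change of 3.94 ± 0.43 (SE, adjusted p = 1.95e-06). Hmmr, which helps to focus spindle poles and also binds hyaluronan, changed most. It read 0.637, 0.277, 2.61, 0 and 0.0405 CPM in sham, 10.9, 23.96, 12.4, 11.8 and 14.9 in crush AAV-null and 12.8, 9.24, 10.7, 11.8 and 9.78 in crush AAV-CNTF, a log2 fold change of 4.37 ± 0.64 (SE, adjusted p = 6.02e-05). Most of its sham signal lay in sham replicate 4. Nusap1, a microtubule bundling protein, read 1.67, 1.11, 4.47, 2.63 and 4.17 CPM in sham, 7.92, 21.1, 13.7, 14.3 and 9.41 in crush AAV-null and 20.3, 12.6, 14.5, 15.7 and 14.97 in crush AAV-CNTF, the smallest change of the role with a log2 fold change of 2.24 ± 0.34 (SE, adjusted p = 5.91e-05). Tpx2, which activates Aurka on the spindle, rose from 2.94 ± 1.64 to 27.9 ± 6.26 CPM (SD, n = 5 each). On FPKM it overlapped, at 5.71 in sham replicate 4 and 5.43 in crush AAV-null replicate 2.

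The cytokinesis genes Prc1, Ect2 and Racgap1 rose, and the fourth, Anln, fell. Prc1, which cross-links the microtubules of the central spindle, read 1.91, 0, 4.47, 1.98 and 2.23 CPM in sham, 25.9, 41.7, 25.98, 40.6 and 37.7 in crush AAV-null and 23.4, 24.3, 33.7, 37.4 and 34.2 in crush AAV-CNTF, a log2 fold change of 4.02 ± 0.45 (SE, adjusted p = 2.25e-06). Racgap1, a subunit of centralspindlin, went from 5.39 ± 3.13 to 26.2 ± 5.14 CPM and Ect2, which activates RhoA at the cleavage furrow, from 1.58 ± 1.19 to 11.2 ± 3.39 (SD, n = 5 each). Anln encodes anillin, a scaffold of the contractile ring that is also known as a septin partner in the myelin sheath of the central nervous system. It read 229, 243, 239, 210 and 326 CPM in sham, 110, 118, 149, 111 and 144 in crush AAV-null and 146, 144, 146, 121 and 150 in crush AAV-CNTF. Every sham library lay above every crush library, and the log2 fold change was -0.98 ± 0.12 (SE, adjusted p = 3.04e-06). It took the larger share of the summed counts of the 43 genes in every sham library. It lies on chromosome 9 from 22332012 to 22389188, minus strand. The 8 oligodendrocyte markers all fell in the same comparison, from a summed 50610 to 64230 CPM in sham to 21250 to 29770 CPM in crush AAV-null. Their part in the Anln result was not tested.

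Of the 6 genes for condensin and cohesin acetylation, 5 rose, and their median log2 fold change of 1.78 was the lowest of the 9 roles. Smc4, an ATPase of the condensin core, read 18.2, 18.8, 27.7, 15.2 and 23.6 CPM in sham, 30.2, 51.8, 40.04, 25.5 and 34.8 in crush AAV-null and 36.3, 47.2, 43.5, 36.6 and 37.7 in crush AAV-CNTF. Sham replicate 4 overlapped the lowest crush AAV-null library, the log2 fold change was 0.81 ± 0.19 (SE, adjusted p = 0.00241), and on FPKM values the adjusted p was 0.0693. Smc2, its partner, went from 7.97 ± 2.501 to 27.1 ± 5.77 CPM and Ncapd2, a condensin I subunit, from 12.7 ± 3.11 to 33.5 ± 5.83 (SD, n = 5 each). Ncaph, the kleisin that closes the condensin I ring, read 0.931, 0.138, 2.19, 0.697 and 0.526 CPM in sham, 7.09, 8.18, 7.78, 6.14 and 14.6 in crush AAV-null and 13.6, 9.37, 14.9, 13.6 and 9.02 in crush AAV-CNTF, the largest change of the role with a log2 fold change of 3.29 ± 0.46 (SE, adjusted p = 2.66e-05). Ncapg, another condensin I subunit, went from 1.03 ± 0.533 to 5.76 ± 2.697 CPM. Esco2, the cohesin acetyltransferase of S phase, went from 1.02 ± 1.11 to 3.56 ± 3.55 CPM, and its log2 fold change of 1.80 ± 0.83 (SE, adjusted p = 0.128) did not pass. Without sham replicate 3 it was 2.61 with an adjusted p of 0.0396.

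**Figure D3:**
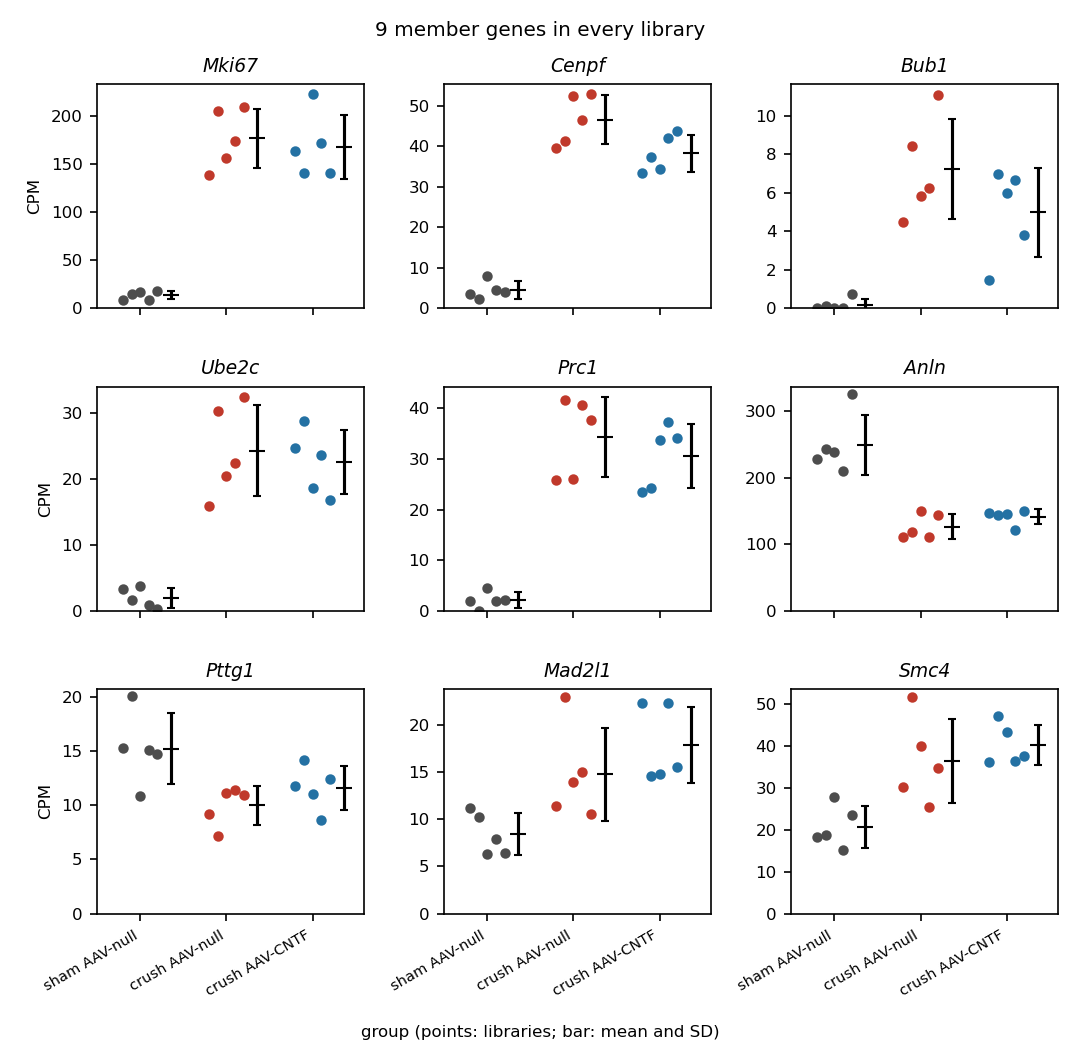
CPM of 9 of the genes in each library (points), with the mean and SD of each group of 5 (bars). On CPM, Mki67, Cenpf, Bub1, Ube2c and Prc1 separate sham from crush libraries, and Anln does so in the other direction. On FPKM, Cenpf and Bub1 do not separate. The sham CPM range of Pttg1, Mad2l1 and Smc4 overlaps that of crush AAV-null.

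Summed over the 43 genes without Anln, the level ran from 116.1 to 198.2 CPM in sham, 731 to 1039 in crush AAV-null and 744 to 876.1 in crush AAV-CNTF libraries. Sham replicate 4 had the highest sham sum, 198.2 CPM, and sham replicates 4 and 6 had 3 and 2 of the 43 genes at a count of 0, against 13, 8 and 9 in sham replicates 2, 3 and 5. No crush library had any of them at 0. Replicate 3 of crush AAV-null had the highest sum after crush, 1039 CPM. The 8 microglia and macrophage markers summed to 563.6 to 734.8 CPM in sham, 1715 to 2303 in crush AAV-null and 1344 to 1794 in crush AAV-CNTF. The highest sham and crush libraries of that sum were also sham replicate 4 and crush AAV-null replicate 3. Csf1r, Itgam, Cd68, Tyrobp and Cx3cr1 were highest of sham in that sham library, and Aif1, Ptprc and P2ry12 were not. In crush AAV-null replicate 3, Itgam, Cd68, Tyrobp and Cx3cr1 were highest of the group, and Aif1, Csf1r, Ptprc and P2ry12 were not. Sham replicate 4 was also the highest sham library for the fibroblast (2296 CPM), endothelial (192.1) and pericyte and smooth muscle (304.9) marker sums. Within those lists Col1a1, Col1a2, Col3a1, Cdh5, Acta2 and Tagln were highest there, and Dcn, Lum, Pecam1, Kdr, Pdgfrb and Rgs5 were not. Cldn5 and Tek were the lowest of sham in that library. Of the 8 microglia and macrophage markers 7 rose in crush AAV-null, and P2ry12 passed in neither direction. Fibroblast markers rose for 4 of 5, from 1008 to 2296 CPM in sham to 3943 to 6737 in crush AAV-null. NG2 glia markers rose for 2 and fell for 3 of 6, from a summed 1171 to 1393 CPM to 1100 to 1207. Of 5 endothelial markers 1 rose, and of 6 astrocyte markers 5 fell. The part of these cell types in the rise of the mitotic genes was not tested.

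Compared per gene length, the order of the genes changed with crush. In sham nerve the highest FPKM levels were those of Anln at 55.1 ± 10.5, Pttg1 at 34.1 ± 12.3, Ncapd2 at 10.7 ± 3.5, Smc4 at 7.12 ± 2.39 and Racgap1 at 4.62 ± 3.54 (SD, n = 5 each). In crush AAV-null nerve Ube2c led at 33.4 ± 10.1 FPKM, with Anln at 33.0 ± 5.8, Cdk1 at 25.2 ± 7.0, Pttg1 at 23.1 ± 4.6 and Ccna2 at 21.03 ± 6.73. Neighbours in that order differed by less than the larger of their SDs, other than Anln and Cdk1, whose gap exceeded both. In crush AAV-CNTF nerve the same 5 genes led, with Anln at 36.4 ± 3.4, Pttg1 at 33.2 ± 10.01, Ube2c at 30.9 ± 7.4, Cdk1 at 21.7 ± 6.4 and Ccna2 at 18.5 ± 5.2 FPKM.

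The second comparison asked whether CNTF changed the nerve after crush. None of the 43 genes passed in edgeR in crush AAV-CNTF against crush AAV-null, where 0.0423% of all genes tested were called higher and 0.0141% lower. These shares are 6 and 2 genes, and leaving out 1 library moved them to between 1 (without crush AAV-null replicate 2) and 38 (without crush AAV-CNTF replicate 6) higher and 0 to 3 lower. Of the 43, 1 gene, Bub1b, had an unadjusted p under 0.05, and DESeq2 also called 0 of the 43. The median log2 fold change was -0.09 over the 43 genes and -0.003 over all genes tested, and 13 of the 43 lay above 0. On CPM, no gene of the 43 had groups without overlap, where 0.838% of all genes tested had every AAV-CNTF library higher and 0.712% every one lower. On FPKM, every AAV-CNTF library lay below every AAV-null library for Bub1b and Racgap1, against 0.641% of all genes tested, and none of the 43 lay above, against 0.705%. The 95% intervals of 42 genes held 0. For Mki67 the log2 difference was -0.07 ± 0.18 (SE, adjusted p = 0.974), with an interval of -0.45 to 0.30. For Anln it was 0.16 ± 0.12 (SE, adjusted p = 0.854), with an interval of -0.09 to 0.41. Intervals of low genes were wide, from -1.16 to 2.56 for Ttk and -2.02 to 0.94 for Bub1. The smallest adjusted p in the authors' deposited table for this comparison over the 43 genes was 0.359.

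The 5 largest differences between the crush groups were those of Bub1b, Ttk, Cdca8, Esco2 and Bub1. Bub1b read 8.95, 23.8, 12.8, 14.04 and 19.6 CPM in crush AAV-null and 9.34, 8.82, 13.4, 7.14 and 7.71 in crush AAV-CNTF, a log2 difference of -0.77 ± 0.33 (SE, adjusted p = 0.571). Of the AAV-CNTF libraries 3 lay below every AAV-null library, and the interval ran from -1.46 to -0.08. On FPKM, Bub1b read 5.72, 10.25, 8.35, 7.34 and 8.57 in AAV-null and 4.89, 2.69, 4.21, 3.1 and 2.19 in AAV-CNTF. The groups did not overlap there, and the difference on log2(FPKM + 0.1) was -1.24 (limma adjusted p = 0.499). Racgap1, named after its values were seen, lay at 14.4 to 24.2 FPKM in AAV-null and 7.5 to 12.9 in AAV-CNTF. Its difference on that scale was -0.79 (limma adjusted p = 0.754), and its CPM ranges overlapped. Ttk read 1.66, 3.02, 2.65, 1.26 and 1.66 CPM in AAV-null and 3.93, 6.46, 2.66, 2.51 and 1.12 in AAV-CNTF, a log2 difference of 0.70 ± 0.89 (SE, adjusted p = 0.945). Its ranges overlapped. For Cdca8, whose values are given above, the log2 difference was -0.65 ± 0.64 (SE, adjusted p = 0.912), and AAV-CNTF replicate 2 was the lowest library at 1.44 CPM. Esco2 read 2.59, 3.47, 0.556, 9.61 and 1.59 CPM in AAV-null and 3.93, 6.08, 4.44, 5.09 and 6.99 in AAV-CNTF, a log2 difference of 0.57 ± 0.81 (SE, adjusted p = 0.956). For Bub1 it was -0.54 ± 0.71 (SE, adjusted p = 0.951), and AAV-CNTF replicate 2 was again the lowest library, at 1.48 CPM.

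**Figure D4:**
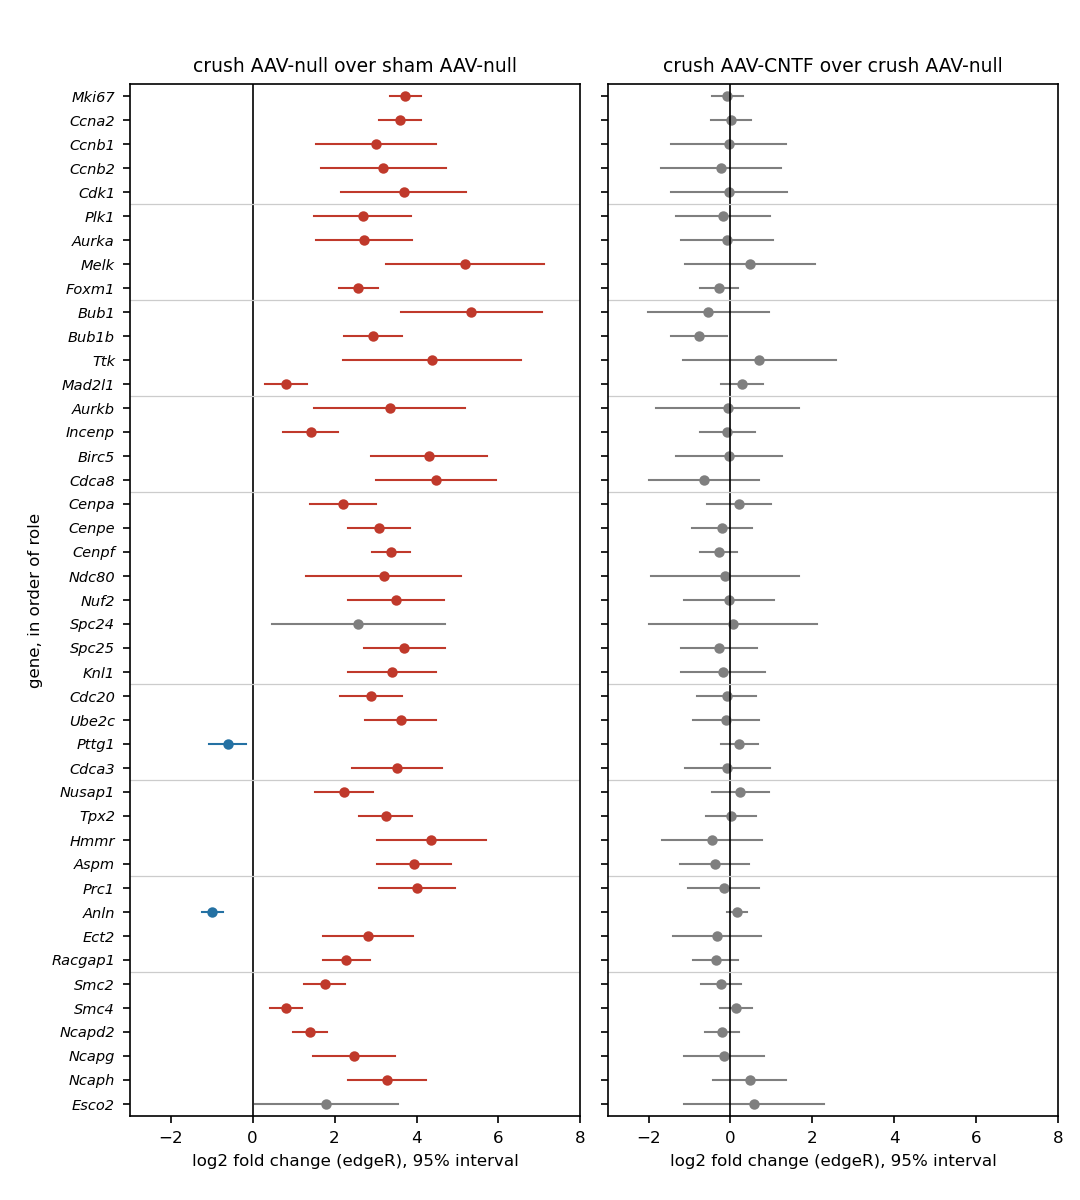
Log2 fold change with its 95% interval (edgeR) for each of the 43 genes, in crush AAV-null over sham (left) and crush AAV-CNTF over crush AAV-null (right). Red marks genes called higher, blue genes called lower and grey genes not called, and on the right no gene is called and 42 intervals hold 0.

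Against the same sham libraries, 40 of the 43 genes were higher in crush AAV-CNTF nerves, Anln was lower, and Spc24 and Pttg1 passed in neither direction. Over all genes tested 17.0% were called higher and 14.3% lower. The median log2 fold change was 2.97, and 39 genes had every AAV-CNTF library above every sham library, against 11.9% of all genes tested. Both crush comparisons share the sham libraries. Esco2 passed here, with a log2 fold change of 2.38 ± 0.83 (SE, adjusted p = 0.0412), a call lost without any of sham replicates 2, 4, 5 and 6 or AAV-CNTF replicates 3 to 6 (adjusted p = 0.0533 to 0.0786). Pttg1 did not pass, at -0.39 ± 0.22 (SE, adjusted p = 0.191). Anln was at -0.82 ± 0.12 (SE, adjusted p = 1.97e-05) and Mki67 at 3.65 ± 0.19 (SE, adjusted p = 1.26e-10). Plk1 read 3.41 CPM in AAV-CNTF replicate 2, below the highest sham library at 5.31 CPM.

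Other genes of division were read from 8 further lists, in crush AAV-null against sham, where 14.7% of all genes tested were called higher and 12.9% lower. Genes of these lists below 1 FPKM in sham could enter the table only through a crush group, as did 1403 of all listed genes. The counts below therefore describe these genes and carry no weight as evidence of a general rise. Of 25 listed genes of the centromere and kinetochore outside the 43, 9 rose and none fell, with a median log2 fold change of 0.81, among them Hjurp, the Cenpa chaperone, from 28.9 ± 3.0 to 50.8 ± 2.4 CPM, and Pmf1 from 3.95 ± 2.11 to 9.32 ± 2.65 (SD, n = 5 each). Of 15 cohesin and condensin II genes, 4 rose, with Ncaph2 at a log2 fold change of 0.79 and Ncapg2 at 1.48, and Rad21 and Smc3, subunits of cohesin, fell by 0.37 and 0.31 on the log2 scale. Of 17 other APC/C genes only Ube2s, another ubiquitin donor of the complex, was called higher, by 0.76 on the log2 scale. Fbxo5 was not called, though its crush AAV-null libraries, at 2.212 to 6.045 CPM, lay above its sham libraries, at 0 to 2.186. Of 10 mitotic entry genes 4 rose, among them Cdc25b, the phosphatase that activates Cdk1, at 1.40 and Mastl at 2.05 (log2). Of 27 other spindle and cytokinesis genes 13 rose, among them the non-muscle myosins Myh9 at 0.77 and Myh10 at 0.50 (log2), and 2 fell, Tacc1 by 0.36 and Ckap5 by 0.42. Of 19 cell cycle transcription factors and MuvB subunits 5 rose, with E2f8 at 3.80 and Tfdp1 at 0.47 (log2), while Rbl2 fell by 0.55 and Tfdp2 by 0.93. Of 15 genes of G1, 5 rose, among them Ccnd1, cyclin D1, at 0.72 and the Cdk inhibitor Cdkn1a at 1.52 (log2), and Ccnd2 fell by 0.38. Of 35 DNA replication genes 17 rose and none fell, with a median log2 fold change of 1.06, among them Pcna, the replication clamp, at 0.61 and Rrm1, a ribonucleotide reductase subunit, at 1.02 (log2). Of the 7 genes of these lists that fell, only Tfdp2 passed with limma on log2(FPKM + 0.1), at -0.80 (adjusted p = 0.00883), and Rad21 and Smc3 had adjusted p-values of 0.151 and 0.451 there. The shares that rose among the APC/C genes and fell among the cohesin genes and the transcription factors were near or below those over all genes. None of these genes passed in crush AAV-CNTF against crush AAV-null.

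Overlap of annotated genes limits some values, since the strand setting of the counting is not stated. Of the 43 genes, 13 overlap a gene on the other strand, among them Ccna2 with Exosc9, Cdc20 with Elovl1, Ube2c with Tnnc2, Nusap1 with Oip5, Prc1 with Rccd1 and Ncapg with Lcorl. An annotated gene on the same strand overlaps 8 of the 43, such as Tex52 at Foxm1.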

How the data were processed

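Total RNA of 15 optic nerve samples was sequenced, 5 in each of 3 groups. Per the submitters' processing notes, Trimmomatic 0.32, STAR 2.5.3a, RSEM 1.2.31, DESeq2 and R 3.2.3 were used with the mm10 build. Annotation and strand setting were not given in the sources used here. Library kits of 2 kinds are named, per the labels' protocols, without an assignment to libraries. Per the file headers, the authors deposited RSEM expected counts and FPKM values per gene and library, with a log2 fold change and an adjusted p-value for each pair of groups.

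Expected counts were rounded to whole numbers, normalised by TMM and filtered with filterByExpr in edgeR 4.0.16 (R 4.3.3), which left 14194 of 14237 genes. All 43 genes passed. One group-mean model over all 15 libraries (12 residual degrees of freedom) was fitted with the quasi-likelihood test, and p-values were adjusted over all genes tested by the Benjamini-Hochberg method, with a threshold of 0.05. Each SE is from that fit, and intervals are 95%. The common biological coefficient of variation was 0.371. Precision is set by the 5 libraries per group and by totals of 19856688 to 29558293 counts per library. FPKM served for levels between genes and, with a pseudocount of 0.1, for 1 alternative in limma 3.58.1. DESeq2 1.42.0 was another. Gene positions are from GENCODE M21, where 14215 gene IDs matched. The scripts were tested on simulated data.

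The members and all lists were chosen with earlier results of these data known. Described in every library are, within each role, the gene with the highest mean CPM and those with the largest and smallest change in crush AAV-null against sham. In the CNTF comparison these are the 5 largest differences, and from each other list the 2 called genes of highest mean CPM in each direction. Samples with the same replicate number were not treated as paired: correlations of their deviations from the group means ran from -0.053 to 0.113 over 15 pairs. In 3 pairs, replicates 2, 3 and 5 of the crush groups, each library was the other's best match, at 0.113, 0.034 and 0.035. With a replicate block, 14 of all genes were called higher in crush AAV-CNTF against crush AAV-null. No 2 libraries of a group agreed within sampling noise (lowest chi-square per degree of freedom 40.7).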

Additional observations from a re-analysis of the deposited data

Results flagged for a closer look

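In each group of 5 libraries, the highest or lowest value was set against the others by Dixon's gap test, which flags about 1 in 20 groups by chance. Of 129 groups of values of the 43 genes, 11 stood out.

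Sham replicate 4 was the highest sham library for Melk at 0.559 CPM and Ttk at 0.465 CPM, where the other 4 sham libraries were at 0, for Aurkb at 3.77 CPM against 0 to 0.0810, and for Hmmr at 2.61 CPM against 0 to 0.637. Its summed microglia and macrophage markers, 734.8 CPM, lay above the other sham libraries at 563.6 to 599.6. Its fibroblast, endothelial and pericyte marker sums were also the highest in sham. Not every gene of those lists, or of the microglia and macrophage list, was highest there. Retnlg, the only 1 of 6 neutrophil markers among the listed genes, read 0.0931 CPM in sham replicate 4 against 0, on 2 counts. Bub1 was highest in sham replicate 6, at 0.729 CPM against 0 to 0.0923, and Racgap1 in sham replicate 5, at 10.7 CPM against 2.47 to 4.79. That library also had the highest summed skeletal muscle markers, 45.9 CPM against 6.69 to 18.01.

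In crush AAV-null, Ncaph was highest in replicate 6, at 14.6 CPM against 6.14 to 8.18. That library also had the largest total, 29138927 counts against 19918858 to 21961896, and the largest share of listed genes at 0, 3.18% against 1.10 to 1.41%. The summed microglia and macrophage markers were highest in replicate 3, at 2303 CPM against 1715 to 1871, though Aif1, Csf1r, Ptprc and P2ry12 were not.

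In crush AAV-CNTF, Plk1 was lowest in replicate 2, at 3.41 CPM against 14.02 to 15.14. Replicate 5 was highest for Aurka, at 8.97 CPM against 3.40 to 4.66, and lowest for Anln, at 121.2 CPM against 144 to 150.3, and for Ncapg, at 3.50 CPM against 5.34 to 5.80. Retnlg, the only neutrophil marker listed, was highest in replicate 3, at 5.29 CPM against 0 to 0.361. The causes of these values were not tested.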

How the results depend on the processing

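The count of the 43 genes called higher in crush AAV-null against sham ranged from 38 to 40 over every alternative, and in crush AAV-CNTF against crush AAV-null it was 0 in each. No called value reversed. The count called lower in crush AAV-null against sham, 2 in the report, was 1 with only the 10 libraries compared, with the replicate block, with limma-voom, with limma on log2(FPKM + 0.1) and with replicate 6 of crush AAV-null and 4 of crush AAV-CNTF left out together, and 1 to 2 when single libraries were left out. Pttg1 is the gene that lost its call each time. Genes of the other lists called lower, 7 in crush AAV-null against sham and 8 in crush AAV-CNTF against sham, numbered 1 and 0 on FPKM. The latter count was 5 with sham replicates 4 and 6 left out together and 5 to 8 when single libraries were left out. Both sets of libraries left out together were chosen after seeing the data. With the replicate block, 40 of the 43 genes were higher and 1 lower in crush AAV-null against sham, and 41 and 1 in crush AAV-CNTF against sham. Over all genes, DESeq2 called 59 higher and 24 lower in crush AAV-CNTF against crush AAV-null, where edgeR called 6 and 2. In crush AAV-CNTF against sham, edgeR called 2406 higher and 2031 lower over all genes and limma on FPKM 2565 and 966. Esco2 in crush AAV-CNTF against sham lost its call also with sham replicates 4 and 6 left out together (adjusted p = 0.135). On FPKM, the adjusted p of Ncapd2 there was 0.208. Low counts limit Melk, Ttk, Bub1, Ndc80 and Spc24, which were at 0 in 3 or 4 of the 5 sham libraries.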
